A study of Rattus norvegicus with 4 samples.

Results

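A set of 10 genes that carry fatty acids from blood lipoproteins into adipose cells was followed: Lpl, Gpihbp1, Cd36, Fabp3, Fabp4, Fabp5, Angptl4, Lmf1, Vldlr and Slc27a1. They were chosen by symbol, as the enzymes, carriers and receptors of this route, and 9 of the 10 matched a symbol among the 32883 genes of the deposited tables. Cd36, a fatty acid receptor at the cell surface, had no row under its symbol and was not analysed here. Counts of unique molecular identifiers (UMIs, each standing for 1 captured RNA molecule) were summed per library and cell class. They were then compared between adipocytes and endothelial nuclei, and between the 2 tissues.

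Nuclei came from snap-frozen fat of untreated male Dahl salt-sensitive rats (strain SS/HsdMcwiCrl, aged 16 weeks), a strain whose blood pressure rises on a salty diet. Perivascular fat around the thoracic aorta (taPVAT) gave 2 libraries and subscapular brown adipose tissue (BAT) gave 2 libraries. No group was treated or carried an altered allele. It is not stated whether a rat gave both kinds of fat or what a replicate number marks, so p-values between tissues measure only the spread between these libraries.

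Triglyceride travels in blood inside lipoproteins. Lipoprotein lipase, made by the parenchymal cells, is carried by GPIHBP1 to the capillary lumen, where it frees fatty acids that then cross the endothelium and enter the adipocyte. Brown adipocytes take up much of the fat they burn in this way, and the thoracic perivascular fat of rodents resembles brown fat.

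Libraries held 14765 to 44637 barcodes and 63654436 to 158140959 UMIs. The stated target was 10000 nuclei per library, below the barcode count of each. Whether some barcodes held only background RNA or more than 1 nucleus was not tested. After a minimum of 500 detected genes per nucleus, 12336 to 42979 nuclei per library remained. Library pairs shared 126 to 424 barcodes, at most 1.29% of the smaller library. Each nucleus was placed in a class by lists of marker genes that hold none of the members. A class other than adipocyte needed 3 different markers and a summed marker count improbable at the library-wide level (Poisson tail under 0.0001). Adipocyte-like nuclei numbered 32378 and 9171 in taPVAT and 26502 and 20650 in BAT. Vascular endothelial-like nuclei numbered 2913 and 568 in taPVAT and 2205 and 1750 in BAT, of which 53 to 729 per library lay just inside the threshold. Between 22 and 472 further nuclei lay just outside it. Class names below stand for these marker-gated nuclei. Adipocyte-like nuclei made up 74.3% to 77.1% of each library. Background RNA can meet the adipocyte list (a median T or NK nucleus held 16, 6, 11 and 9 UMIs of the adipocyte markers), so this share is no check of the tissue label. The endothelial marker Pecam1 had no row under its symbol.

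Adipocyte RNA was present in every class. A median endothelial nucleus held 13, 16, 14 and 13 UMIs of its own markers in taPVAT replicates 1 and 2 and BAT replicates 1 and 2, and 10, 6, 10 and 7 UMIs of the 12 adipocyte markers. Summed over nuclei, the median adipocyte marker stood in endothelial nuclei at 0.64 to 0.70 of its adipocyte level. In T or NK lymphocytes (51 to 228 nuclei per library) that ratio was 0.60 to 0.80. Single markers spread more widely. In taPVAT replicate 2 they ranged from 0.46 (Acaca) to 1.13 (Adipoq) in endothelial nuclei and from 0.13 (Plin4) to 1.17 (Plin5) in T or NK nuclei. Free RNA in the nuclei suspension can give such levels, though its part was not tested, so the T or NK level is used as the background. A member at or below it in endothelial nuclei is not read as expressed there. The adipocyte marker Adipoq stood in T or NK nuclei at 0.88 to 1.02 of its adipocyte level. An adipocyte value near the T or NK level is therefore not read as a lack of expression in adipocytes.

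Gpihbp1, which holds the lipase on the luminal face of capillaries, was the member most unequally divided between the classes. As a share of the UMIs of its class and library (counts per 1000000 UMIs, CPM) it stood at 62.5 and 151 in taPVAT endothelial nuclei and at 83.7 and 119 in BAT endothelial nuclei. In adipocytes of the same libraries it stood at 6.86, 2.64, 4.86 and 9.17 CPM. Every endothelial value lay above every adipocyte value. Within a library the endothelial level was higher by 9.11-fold and 57.2-fold in taPVAT and 17.2-fold and 13.03-fold in BAT. The fitted log2 difference was 4.005 (SE 0.35, edgeR quasi-likelihood test with library as a block, Benjamini-Hochberg adjusted p = 4.34e-05).

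Outside the endothelium Gpihbp1 was near the background everywhere. T or NK lymphocytes held 3, 0, 3 and 5 UMIs of it, or 4.08, 0, 3.86 and 11.7 CPM, and the 0 allows up to 20.6 CPM (3 counts, counting error only). Fibroblasts stood at 4.51 to 10.9 CPM and mural cells at 3.81 to 10.2 CPM. Myeloid nuclei ranged from 2.28 to 9.16 CPM. B lymphocytes held 0 to 3 UMIs per library. The CPM ranges of these classes and of adipocytes overlap, so below the endothelium the classes have no clear order. The fitted log2 difference of the endothelial from the T or NK level was 4.15. It rests on those few T or NK UMIs and passed the filter on low counts through the endothelial sums, so it is given as a description and not as a test or a bound.

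The division was also seen nucleus by nucleus. At least 1 Gpihbp1 UMI was found in 14.7%, 29.8%, 21.5% and 25.9% of endothelial nuclei, whose median depth was 1809 to 2033 UMIs. The share in the deeper adipocyte nuclei (medians 2876 to 4925 UMIs) was 2.46%, 1.34%, 2.18% and 2.92%. With each nucleus thinned to 1000 UMIs, which left out 22 to 239 shallower endothelial nuclei per library and 17 to 687 adipocyte nuclei, the shares were 7.59%, 19.0%, 10.7% and 14.3% of endothelial nuclei. The thinned adipocyte shares were 0.88%, 0.37%, 0.57% and 1.04%, and those of T or NK nuclei were 0.53%, 0%, 0% and 1.03%. Endothelial nuclei carried 2.79% to 5.28% of all UMIs in a library but 30.0% and 57.3% of its Gpihbp1 UMIs in taPVAT and 43.0% and 37.7% in BAT. The far more numerous adipocyte nuclei held 49.8%, 28.6%, 42.1% and 42.5% at their background level.

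**Figure D1:**
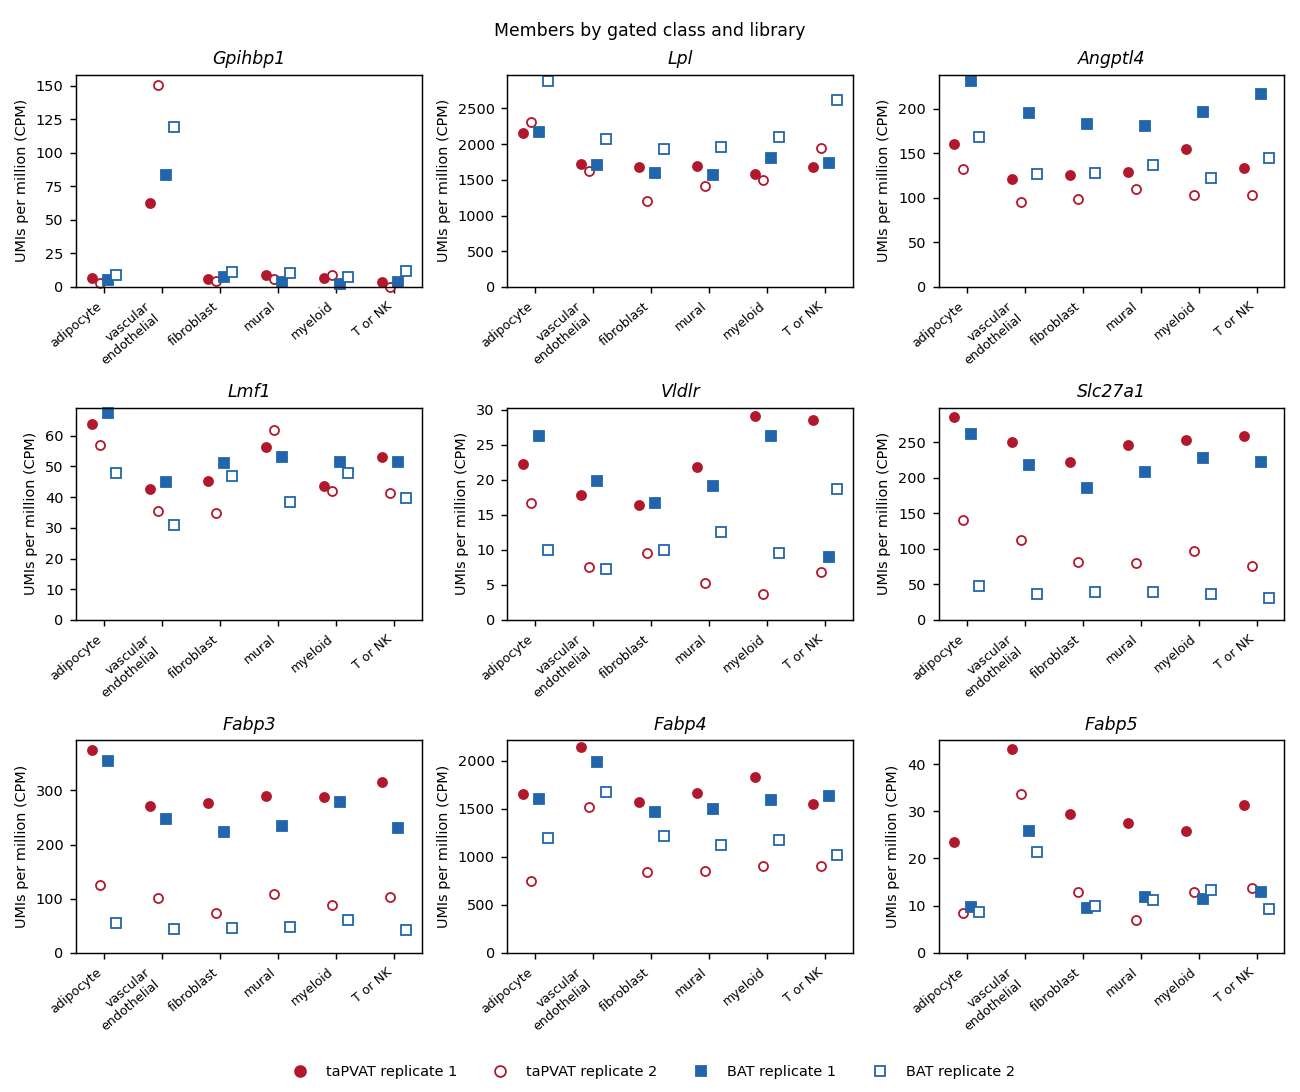
Level of each of the 9 matched members (CPM, linear axes from 0) in 6 gated classes, 1 point per library, circles for taPVAT and squares for BAT, filled for replicate 1 and open for replicate 2. Gpihbp1 stands at 62.5 to 151 in endothelial nuclei and at 0 to 11.7 in the other 5 classes, while Fabp3 and Slc27a1 split by library rather than by class.

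Of the 6 classes plotted, adipocytes held the highest level of Lpl, the lipase itself, in all 4 libraries. Adipocytes of taPVAT held 2151 and 2316 CPM and those of BAT held 2171 and 2892 CPM. Endothelial nuclei held 1718, 1626, 1714 and 2071 CPM and T or NK nuclei 1683, 1940, 1740 and 2625 CPM. The endothelial level was lower than the adipocyte level by a log2 difference of -0.55 (SE 0.13, edgeR adjusted p = 0.0077) and differed from the T or NK level by -0.05 (95% interval -0.29 to 0.20). The endothelial level of Lpl was thus at the background set by T or NK nuclei. It was above fibroblasts (1684, 1210, 1599 and 1936 CPM) and mural cells (1693, 1411, 1565 and 1960 CPM) in all 4 libraries. Its order against myeloid and T or NK nuclei changed from library to library. The ratio of endothelial to adipocyte level of Lpl lay above that of 11 and 11 of the 12 adipocyte markers in taPVAT and 10 and 9 in BAT.

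Angptl4, a secreted inhibitor of the lipase, was also highest in adipocytes of these 6 classes in all 4 libraries (the few B lymphocytes of BAT replicate 2 held 192 CPM), at 160 and 133 CPM in taPVAT and 232 and 168 CPM in BAT. Endothelial nuclei held 121, 95.8, 195 and 126 CPM, a log2 difference of -0.51 (SE 0.11, edgeR adjusted p = 0.0047). Lmf1, an endoplasmic reticulum protein that the lipase needs to fold, stood at 63.8, 56.9, 67.4 and 47.8 CPM in adipocytes and at 42.8, 35.4, 45.1 and 30.9 CPM in endothelial nuclei. It was lower in the endothelium by a log2 difference of -0.74 (SE 0.10, edgeR adjusted p = 6.8e-04), with no overlap between the classes. Neither gene exceeded the T or NK level in endothelial nuclei.

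Vldlr, a receptor that binds triglyceride-rich lipoproteins, had few UMIs in the endothelium, 143 and 13 in taPVAT and 146 and 35 in BAT. Its levels there were 17.8, 7.55, 19.8 and 7.30 CPM, against 22.3, 16.7, 26.3 and 10.0 CPM in adipocytes. Endothelial values were lower in each library (log2 difference -0.61, SE 0.16, edgeR adjusted p = 0.014), although the ranges of the classes overlap. T or NK nuclei held 28.5, 6.88, 9.02 and 18.6 CPM, above the adipocyte value in taPVAT replicate 1 and BAT replicate 2. These T or NK levels rest on 21, 1, 7 and 8 UMIs, and adipocytes are not read from them as lacking Vldlr. The call was lost without BAT replicate 2 (log2 difference -0.63) and without nuclei of over 15% mitochondrial UMIs (-0.38).

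Slc27a1 encodes fatty acid transport protein 1, a membrane protein with acyl-CoA synthetase activity. In adipocytes its levels were 286 and 140 CPM (taPVAT) and 262 and 48.3 CPM (BAT). Endothelial nuclei held 250, 113, 217 and 36.9 CPM, lower within every library by a log2 difference of -0.42 (SE 0.10, edgeR adjusted p = 0.0099, lost without BAT replicate 2 at -0.40). Fabp3, the heart-type fatty acid binding protein, stood at 376, 124, 354 and 55.5 CPM in adipocytes and at 272, 101, 247 and 44.0 CPM in the endothelium (log2 difference -0.54, SE 0.09, edgeR adjusted p = 0.0019). For both genes the spread between libraries was larger than the division between classes.

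Fabp4 and Fabp5, the adipocyte-type and epidermal-type binding proteins, went the other way. Fabp5 stood at 43.2 and 33.7 CPM in taPVAT endothelial nuclei and at 25.8 and 21.3 CPM in BAT endothelial nuclei. Adipocytes held 23.4, 8.36, 9.80 and 8.69 CPM. The endothelium was higher in every library, by 1.84-fold to 4.03-fold (log2 difference 1.22, SE 0.15, edgeR adjusted p = 3.6e-04). T or NK lymphocytes, which are also known to make Fabp5, held 31.3, 13.8, 12.9 and 9.32 CPM, in each library above the adipocyte value and below the endothelial value, from 23, 2, 10 and 4 UMIs. Against them the endothelial log2 difference was 0.88 (SE 0.24, edgeR adjusted p = 0.013). That call was lost without BAT replicate 1 (0.80), with DESeq2 (0.95) and without nuclei of over 15% mitochondrial UMIs (0.91). Fabp5 has near-identical processed copies in mammalian genomes, so its counts are uncertain where reads could be split among them.

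Fabp4 stood at 2143 and 1522 CPM in taPVAT endothelial nuclei and at 1984 and 1675 CPM in BAT endothelial nuclei. Adipocytes of the same libraries held 1650, 748, 1603 and 1200 CPM. Each endothelial value was above its own library's adipocytes, by 1.30-fold, 2.03-fold, 1.24-fold and 1.40-fold, and the log2 difference was 0.41 (SE 0.13, edgeR adjusted p = 0.027). The division of Fabp4 was the least firm of the 9: its call was lost without taPVAT replicate 1 (0.45), BAT replicate 1 (0.44) or BAT replicate 2 (0.42), with no filter on low counts (0.31), and with nuclei of at least 1000 genes (0.18). Without nuclei of over 15% mitochondrial UMIs it was 0.08, and median mitochondrial shares were 14.2% to 17.0% in endothelial nuclei against 6.22% to 9.76% in adipocytes. The part of the mitochondrial share in the result was not otherwise tested. Against T or NK lymphocytes, at 1554, 901, 1637 and 1021 CPM, endothelial Fabp4 was higher by 0.64 (SE 0.12, edgeR adjusted p = 6.5e-04). Adipocyte Fabp4 overlapped the T or NK values, which is not read as a lack of Fabp4 expression in adipocytes.

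In the division, 3 of the 9 tested members were higher in endothelial nuclei, where 24.2% of the 14194 tested genes were called higher. The other 6 were lower, where 22.8% of genes were called lower. With 47% of all genes called in either direction, the count of 9 called members is less telling than the sizes. The median member differed by -0.51, against -0.06 over all genes tested. Of the 12 adipocyte markers that define the gate, 11 were lower in the endothelium, with a median of -0.64 and a range of -0.93 to -0.11. All 6 members that were lower in the endothelium lay inside that range. Against T or NK lymphocytes 3 of 9 members were called higher (Fabp4, Fabp5 and, with the limit given above, Gpihbp1), where 14.4% of the 8964 tested genes were called higher, and the other 6 differed by -0.18 to 0.16 (edgeR adjusted p from 0.53 to 0.88, 95% intervals within -0.90 to 0.63).

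**Figure D2:**
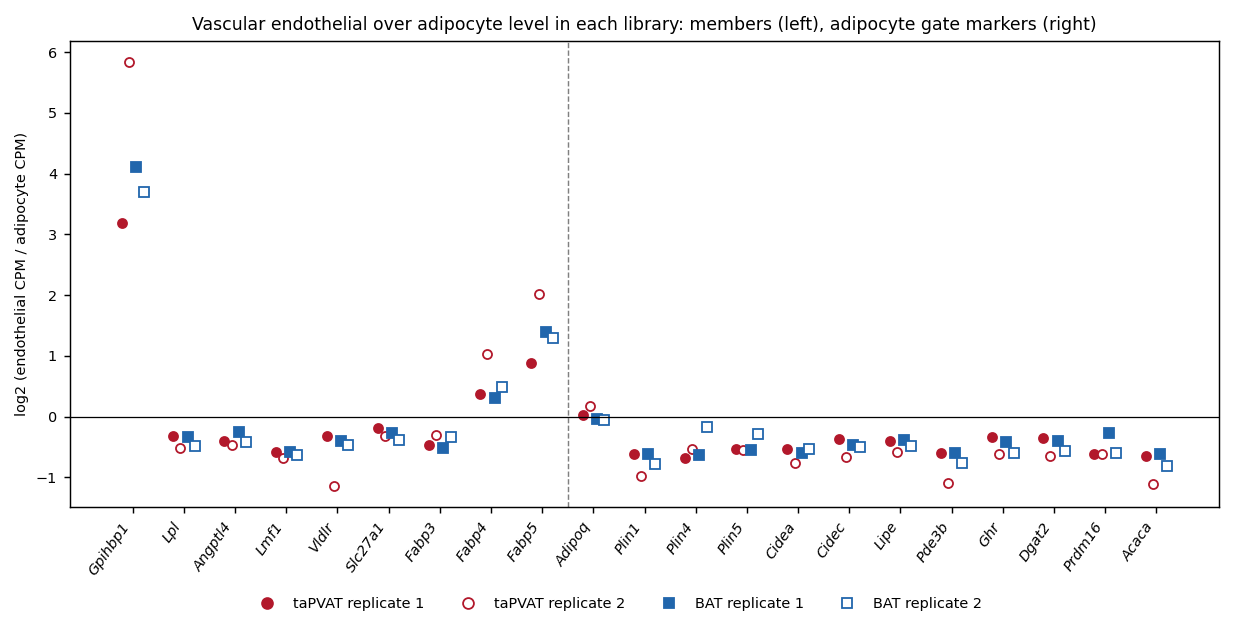
Log2 ratio of the endothelial to the adipocyte level within each library for the 9 members (left of the dashed line) and the 12 adipocyte gate markers (right), symbols by library. In all 4 libraries Gpihbp1, Fabp4 and Fabp5 lie above all 12 adipocyte markers, and the other 6 members lie among or close to them.

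In endothelial nuclei low in adipocyte RNA (under 0.5 of the adipocyte median share), the differences were larger in both directions. There Gpihbp1 was higher by 4.67, Fabp5 by 1.92 and Fabp4 by 0.82 on the log2 scale. Lpl was lower by a log2 difference of -1.003, Lmf1 by -1.66, Vldlr by -1.66, Fabp3 by -0.92, Angptl4 by -0.73 and Slc27a1 by -0.66. Those nuclei were selected for little adipocyte RNA, so as shares of all UMIs a lower level of adipocyte genes and a higher level of other genes are both partly built in, and nothing is read from the change.

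Genes known to act with the members were read from a list of 44, all of them matched by symbol. Of the 33 tested in the division, 8 were higher in endothelial nuclei and 12 were lower, beside 24.2% of all genes tested called higher and 22.8% called lower. The count of higher genes is near that background. Meox2, which pairs with Tcf15 to drive fatty acid uptake genes in heart endothelium, stood at 438, 396, 390 and 326 CPM in endothelial nuclei and at 10.3, 1.62, 4.02 and 6.43 CPM in adipocytes. Its log2 difference was 6.18 (SE 0.39, edgeR adjusted p = 5.9e-06). Tcf15 stood at 26.6, 65.0, 26.1 and 51.3 CPM in endothelial nuclei, against 2.27, 0.71, 1.57 and 2.65 CPM (log2 difference 4.30, SE 0.37). Both transcription factors were thus divided like Gpihbp1, with no overlap between classes.

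Scarb1, a lipoprotein receptor of the endothelium and other cells, stood at 56.6, 96.4, 65.9 and 113 CPM in endothelial nuclei and at 4.64, 4.71, 3.31 and 7.20 CPM in adipocytes. Its log2 difference was 3.92 (SE 0.15, edgeR adjusted p = 1.4e-06). Cavin1, a coat protein of caveolae, was higher by 2.15 (SE 0.23) and the apolipoprotein gene Apoe by 1.83 (SE 0.19). The 5 largest differences in the other direction were Ppara (-1.02, SE 0.14), a nuclear receptor of fat oxidation, Acsl1 (-0.89, SE 0.15), Slc27a2 (-0.89, SE 0.13), Acsl5 (-0.76, SE 0.14) and Acsl4 (-0.72, SE 0.16). The last 4 encode enzymes that couple fatty acids to coenzyme A. Of the 28 listed genes tested against T or NK lymphocytes, 0 were lower in the endothelium, beside 8.43% of all genes tested, and 9 were higher, beside 14.4%. They were led by Meox2 (5.18, SE 0.24), Tcf15 (3.24, SE 0.37), Scarb1 (2.51, SE 0.23), Cavin1 (2.05, SE 0.23) and Cav1 (1.63, SE 0.20), a structural protein of caveolae. T or NK counts of these genes are not given here. A gene with few T or NK UMIs can pass the filter on low counts through the endothelial sums, as Gpihbp1 did. These differences are therefore given as descriptions and not as tests.

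Endothelial nuclei were then split by arterial markers. Those with at least 2 different arterial markers, 721 and 166 in taPVAT and 532 and 329 in BAT, were set against the other endothelial nuclei of their library. Gpihbp1 was lower in arterial nuclei, at 34.1 and 78.4 CPM in taPVAT and 55.02 and 72.9 CPM in BAT. The other endothelial nuclei held 74.1, 185, 94.6 and 134 CPM. Arterial nuclei were lower in every library, with a log2 difference of -1.01 (SE 0.10, edgeR adjusted p = 4.2e-07), and still stood above every adipocyte value.

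Of the 9 members, 3 were lower in arterial nuclei and 0 higher, where 3.88% of 9961 genes were called lower. The others called were Fabp4 (log2 difference -0.39, SE 0.05, edgeR adjusted p = 4.9e-06) and Lpl (-0.22, SE 0.05, edgeR adjusted p = 0.0026). Endothelial Lpl was at the T or NK background, so its call is not read as a difference in expression. Fabp4 stood at 1789, 1278, 1652 and 1396 CPM in arterial nuclei and at 2288, 1636, 2111 and 1759 CPM in the rest. Its call was lost without nuclei of over 15% mitochondrial UMIs (-0.18), and that of Lpl without BAT replicate 1 (-0.20) and under a stricter gate (-0.17).

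Fabp5 (-0.41, SE 0.14), Angptl4 (-0.23, SE 0.08) and Slc27a1 (-0.23, SE 0.08) did not pass, with edgeR adjusted p of 0.074, 0.077 and 0.086. In endothelial nuclei low in adipocyte RNA these 3 passed as well (-0.67, -0.48 and -0.38), and Slc27a1 also passed without the deepest 5% of nuclei (-0.26). Counts over all genes in these settings are not given here, so these calls are not read as standing out. Lmf1, Fabp3 and Vldlr differed by -0.06 to -0.02. The median member differed by -0.23, against -0.02 over all genes and -0.20 over the 12 adipocyte markers, of which 5 were called lower. Arterial nuclei were deeper (median 2226 to 2421 UMIs against 1650 to 1896), and a nucleus with more UMIs shows 2 arterial markers more easily. Their median mitochondrial share was lower in each library (11.5% to 14.8% against 15.3% to 18.2%). The part of adipocyte RNA and depth in these differences was not tested. That of the mitochondrial share was not tested beyond leaving out nuclei of over 15% mitochondrial UMIs.

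**Figure D3:**
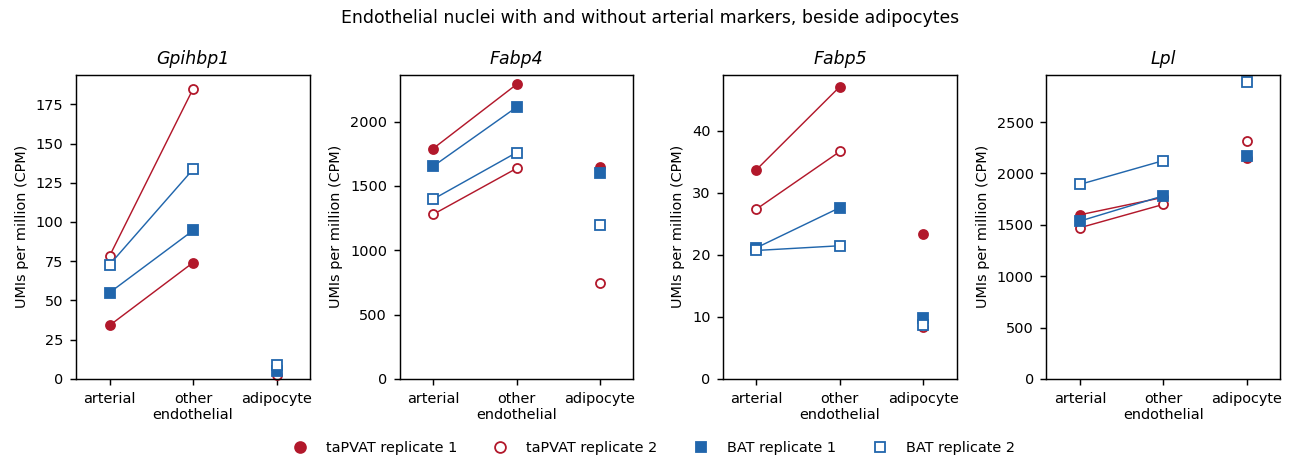
Levels (CPM, linear axes from 0) of Gpihbp1, Fabp4, Fabp5 and Lpl in arterial and other endothelial nuclei of each library, joined by a line, with adipocytes beside them. Gpihbp1 lies between 34.1 and 78.4 in arterial nuclei and between 74.1 and 185 in the other endothelial nuclei, lower in arterial nuclei in each library, and Lpl is highest in adipocytes.

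Among the 28 wider-list genes tested between arterial and other endothelial nuclei, 3 were higher and 3 lower, beside 5.63% of all genes tested called higher and 3.88% called lower. Lsr, a lipoprotein receptor and tricellular junction protein, was higher by 1.74 (SE 0.19), Pcsk5, a protease of the proprotein convertase family, by 0.43 (SE 0.07), and Cavin1 by 0.40 (SE 0.09). The lower genes were Nrp1, a co-receptor of VEGF (log2 difference -0.46, SE 0.05), and the nuclear receptors Ppard (-0.35, SE 0.07) and Pparg (-0.16, SE 0.04). Pparg differed by less than the median adipocyte marker in this comparison (-0.20). The part of adipocyte RNA in its difference was not tested.

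Between the tissues, no member passed the test with tissue alone in the model. With the replicate number as a block the calls differed, and these are given in the closing section. In adipocytes 0 of 9 members were called, and 0% of the 16034 tested genes were (edgeR; 308 at an unadjusted p under 0.05, with 60 genes and 0 members called by DESeq2). In endothelial nuclei 0 of 9 members were called, and 0% of 12035 genes (edgeR; 228 at an unadjusted p under 0.05, and DESeq2 called 6 genes and 0 members). In the sum over all nuclei 0 of 9 members were called among 17047 genes (edgeR; 503 at an unadjusted p under 0.05, and DESeq2 called 121 genes and 0 members). With 2 libraries per tissue the intervals were wide, and a missed threshold does not show that the tissues were alike.

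In adipocytes Lpl averaged 2234 ± 117 CPM in taPVAT and 2531 ± 510 CPM in BAT (SD, n = 2 each), a log2 difference of -0.13 with a 95% interval of -0.91 to 0.64. In endothelial nuclei Gpihbp1 averaged 107 ± 62.6 CPM in taPVAT and 102 ± 25.3 CPM in BAT (SD, n = 2 each), a log2 difference of -0.00 with an interval of -1.13 to 1.12. The 2 BAT values lay between the 2 taPVAT values. Lmf1 was also nearly level, at 0.12 in adipocytes (interval -0.56 to 0.79) and 0.01 in endothelial nuclei (-0.69 to 0.71).

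Angptl4 was lower in both taPVAT libraries than in both BAT libraries, in adipocytes and in endothelial nuclei. Its adipocyte level averaged 146 ± 19.4 CPM in taPVAT and 199.8 ± 44.8 CPM in BAT (SD, n = 2 each), a log2 difference of -0.40 (SE 0.28, interval -1.09 to 0.29, edgeR adjusted p = 1.0). In endothelial nuclei, where the gene was at the background, the difference was -0.59 (SE 0.29, interval -1.30 to 0.12, edgeR adjusted p = 1.0). Angptl4 was the 1 member of 9 whose adipocyte libraries did not overlap between the tissues, as was true of 19.6% of all genes tested.

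Fabp5 was higher in taPVAT endothelial nuclei, at 38.4 ± 6.72 CPM against 23.5 ± 3.21 CPM in BAT (SD, n = 2 each), without overlap. T or NK lymphocytes, used as the background, had the same order without overlap, at 31.3 and 13.8 CPM in taPVAT and 12.9 and 9.32 CPM in BAT, so the background moved with this difference and its part was not tested. Non-overlap held for 2 of 9 members there, Fabp5 and Angptl4, and for 21.5% of all genes tested. The log2 difference of Fabp5 was 0.68 (SE 0.28, interval -0.00 to 1.36, edgeR unadjusted p = 0.050, adjusted p = 1.0). In adipocytes Fabp5 was high in taPVAT replicate 1 alone, and its difference of 0.81 (interval -0.39 to 2.00) fell to -0.10 without that library.

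Fabp4 differed between tissues by -0.19 in adipocytes (interval -1.22 to 0.83) and by -0.04 in endothelial nuclei (-0.81 to 0.74). Vldlr differed by 0.15 (-1.004 to 1.31) and -0.05 (-1.46 to 1.36). Gpihbp1 differed by -0.54 in adipocytes (-1.91 to 0.83), at levels that were background. For these 3 genes the libraries of the 2 tissues overlapped in both classes.

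**Figure D4:**
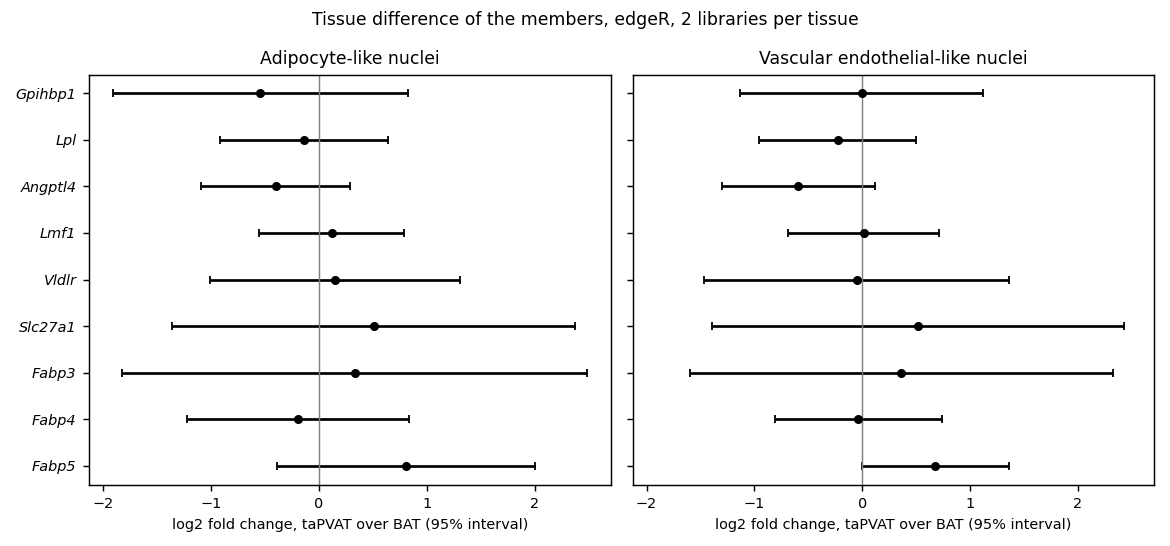
Log2 fold change of each member, taPVAT over BAT, with its 95% interval, in adipocytes (left) and vascular endothelial nuclei (right), from 2 libraries per tissue. Every interval includes 0 and that of Fabp5 in endothelial nuclei ends next to it, while the intervals of Fabp3 and Slc27a1 are the widest in both panels.

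Fabp3 and Slc27a1 differed widely between the replicates of each tissue. In adipocytes Fabp3 was 3.02-fold higher in replicate 1 than in replicate 2 of taPVAT and 6.38-fold higher in replicate 1 than in replicate 2 of BAT. Slc27a1 showed the same order, 2.04-fold in taPVAT and 5.42-fold in BAT. The order was the same in endothelial nuclei, with 2.69-fold and 5.61-fold for Fabp3 and 2.22-fold and 5.89-fold for Slc27a1. Neither gene exceeded the T or NK background there by the test, so the endothelial values are not read as expression and are no second observation of this order. What replicate 1 libraries share is not given in the labels, and its part in the result was not tested.

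The tissue difference of Fabp3 in adipocytes was 0.33 (SE 0.87, interval -1.82 to 2.49) and that of Slc27a1 was 0.51 (SE 0.76, interval -1.36 to 2.38). Without BAT replicate 1 both passed the threshold, at 2.10 for Fabp3 and 2.08 for Slc27a1, in a fit that assumes the lone BAT library to vary like the taPVAT libraries. Without BAT replicate 2 both turned, to -0.45 and -0.24. Within replicate 1 the taPVAT level was 1.06 times the BAT level for Fabp3 and 1.09 times for Slc27a1, and within replicate 2 it was 2.24 and 2.90 times.

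Because Fabp3 and Slc27a1 moved together across the libraries, the stretch from 250 bases before to 50 after the RefSeq start of each gene is shown for comparison. Moving with the replicate number is not particular to this pair. Libraries of the same number deviated together over the 16034 genes tested in adipocytes (correlation 0.57). The sequences are from RefSeq (build GRCr8, not the build of the counts), both on the plus strand, Fabp3 at chr5:147935875-147936174 and Slc27a1 at chr16:18312717-18313016, and capitals mark matches to the motifs searched.
Fabp3: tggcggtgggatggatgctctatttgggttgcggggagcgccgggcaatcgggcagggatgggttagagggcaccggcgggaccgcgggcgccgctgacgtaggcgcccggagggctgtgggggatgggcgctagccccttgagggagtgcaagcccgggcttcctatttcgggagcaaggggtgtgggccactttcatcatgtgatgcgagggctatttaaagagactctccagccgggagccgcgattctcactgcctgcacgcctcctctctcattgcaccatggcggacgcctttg
Slc27a1: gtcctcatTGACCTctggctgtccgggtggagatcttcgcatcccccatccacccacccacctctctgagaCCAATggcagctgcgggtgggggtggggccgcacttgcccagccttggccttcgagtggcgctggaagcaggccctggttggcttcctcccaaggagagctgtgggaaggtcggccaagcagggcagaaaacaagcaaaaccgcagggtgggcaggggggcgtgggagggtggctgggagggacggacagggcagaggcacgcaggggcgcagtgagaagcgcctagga
The motifs, searched on both strands, were the PPAR half-site AGGTCA, the direct repeat AGGTCANAGGTCA that contains it, the GC box GGGCGG, the CCAAT box CCAAT and the TATA box TATAAA. Of 33469 RefSeq promoter windows of the same length, 16.2% held the half-site, 0.0538% the direct repeat, 33.1% the GC box, 37.5% the CCAAT box and 14.2% the TATA box. Slc27a1 held the half-site on the minus strand and a CCAAT box on the plus strand. Fabp3 held none of these letter strings in this window, so the pair had no searched motif in common there. Promoter windows of Cd36, Angptl4, Lmf1 and Vldlr were also searched. No window was available for Lpl, Gpihbp1, Fabp4 and Fabp5, so their promoters were not searched and no motif is called absent from them.

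Whether the tissue difference itself differed between endothelial nuclei and adipocytes was tested by an interaction term. It was called for 0 of 9 members and for 0% of 15172 genes (edgeR; 197 at an unadjusted p under 0.05, and DESeq2 called 2 genes and 0 members). For Gpihbp1 the term was 0.41 (SE 0.63, interval -1.004 to 1.83, edgeR adjusted p = 1.0). It rested on single libraries: without taPVAT replicate 1 it was 1.70 and passed, and without taPVAT replicate 2 it was -0.72. In both fits the lone taPVAT library is assumed to vary like the BAT libraries. For the other 8 members it lay between -0.26 and 0.18.

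In the wider list none of 38 genes tested passed between the tissues in adipocytes and none of 30 in endothelial nuclei (edgeR; 2 and 1 at an unadjusted p under 0.05, and 1 and 0 called by DESeq2). Acsl5, which couples long-chain fatty acids to coenzyme A, had 1 of the 2 smallest p in adipocytes. It stood at 1244 and 1157 CPM in taPVAT and at 524 and 268 CPM in BAT (log2 difference 1.66, SE 0.38, edgeR adjusted p = 1.0). The taPVAT and BAT libraries of Acsl5 did not overlap, without passing the adjusted threshold. In endothelial nuclei the smallest p were those of Acsl5 (1.36, SE 0.43) and Apoc3 (1.06, SE 0.60), both with an edgeR adjusted p of 1.0. Acsl5 stood there at 847, 621, 395 and 169 CPM, below the adipocytes of each library, and no background value is given for it here. Apoc3 rested on 24 and 3 UMIs in taPVAT and 11 and 4 UMIs in BAT.

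The genes with profiles most like those of Gpihbp1 and Lpl were found by Pearson correlation of log2(CPM + 1) over 28 class-by-library sums among 6492 genes with a mean of at least 20 CPM. The sums of a library share its depth and free RNA, so these values are descriptions. Kdr came first for Gpihbp1 (r = 0.96) and is itself an endothelial gate marker. Lnx1 (0.93), Btnl9 (0.92), Aqp1 (0.90) and Anxa3 (0.90) followed and are not gate markers. For Lpl the order was Slc1a3 (0.92), Bcl6 (0.89), LOC100363193 (0.88), Nampt (0.88) and Pmepa1 (0.88), of which none is a gate marker.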

How the data were processed

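The members and gene lists were chosen with earlier results of these data known. The authors deposited raw UMI counts per gene and barcode for 4 libraries, made with Cell Ranger 7.1.0 on Rnor_6.0, per the submitters' processing notes. Every deposited barcode held at least 500 UMIs. Which annotation was used, and how introns and strand were counted, is not given in the sources used here. Reads of overlapping genes therefore cannot be told apart.

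Nuclei with at least 500 genes were gated per nucleus by marker lists. Nuclei that met at least 2 lists other than adipocyte were set aside as mixed (0.45% to 0.60%), and no doublet caller was run. Those that met only the vascular and lymphatic endothelial lists were instead called lymphatic endothelial. Between 9.39% and 10.0% of nuclei could be placed in no class and were left unassigned. Most carried adipocyte RNA (a median nucleus held 24 to 51 UMIs of the adipocyte markers). Adipocyte-like nuclei had at least 3 adipocyte markers and no other list at a Poisson tail under 0.01, a limit stricter than that for meeting a list.

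Counts were summed per library and class and tested with edgeR 4.0.16 (quasi-likelihood, TMM scaling, filterByExpr, R 4.3.3), with Benjamini-Hochberg adjustment over all genes at a threshold of 0.05. The class comparisons had library as a block and the tissue comparisons had tissue only. All 9 members passed the filter in every comparison. The code was tested on simulated counts that had a fixed spread for all genes and no library effect. That run checks the code and does not measure the power of the tests in these libraries. Named genes were all members, up to 5 of the wider list in each direction by size among those called (or the 2 of smallest p), and the 5 genes most like Lpl and Gpihbp1. A result that this rule selects in the wider list is not reported here. Alternatives were DESeq2 1.42.0, other scaling, filters, gate thresholds, a replicate block and leaving out each library.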

Additional observations from a re-analysis of the deposited data

How the results depend on the processing

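Leaving out libraries, changing tools and filters or narrowing the gate reversed no member's division between endothelial nuclei and adipocytes. Of 117 alternative values there, 108 kept their call and direction and 9 lost the call, all given above. Against T or NK lymphocytes, endothelial nuclei low in adipocyte RNA gave 5 called members and 3943 called genes. The 2 additional members, Lpl (-0.35) and Lmf1 (-1.002), were lower than in T or NK lymphocytes, in nuclei selected for little adipocyte RNA. Between arterial and other endothelial nuclei, those low in adipocyte RNA gave 6 called members (Fabp5, Angptl4 and Slc27a1 in addition). The count over all genes in that setting is not given here, so the 6 are not read as standing out. In the same comparison over all endothelial nuclei DESeq2 called 561 genes, and leaving out 1 library gave 551 to 882 genes. Sign changes of members that had not passed numbered 12 of 116 values against T or NK lymphocytes (Lpl, Fabp3, Angptl4 and Vldlr) and 7 of 116 between arterial and other nuclei (Lmf1 and Vldlr).

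Between the tissues, adipocytes gave 60 called genes with DESeq2 and 35 without a filter on low counts. Leaving out 1 library gave 0 to 100 genes and 0 to 2 members. Endothelial nuclei gave 6 genes with DESeq2, 63 without the filter, and 1 to 10 when 1 library was left out. All nuclei gave 121, 56 and 0 to 40. The interaction gave 2 genes with DESeq2, 3 without the filter, and 0 to 323 genes and 0 to 1 member when 1 library was left out.

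Tissue differences of single members changed sign when 1 library was left out. In adipocytes the ranges were -0.41 to 0.12 for Lpl, -1.37 to 0.028 for Gpihbp1, -0.65 to 2.10 for Fabp3, -0.85 to 0.24 for Fabp4, -0.10 to 1.34 for Fabp5, -0.082 to 0.29 for Lmf1, -0.36 to 0.91 for Vldlr and -0.24 to 2.08 for Slc27a1. In endothelial nuclei they were -0.75 to 0.50 for Gpihbp1, -0.56 to 2.00 for Fabp3, -0.33 to 0.20 for Fabp4, -0.19 to 0.25 for Lmf1, -0.91 to 0.78 for Vldlr and -0.25 to 2.21 for Slc27a1. The interaction of Gpihbp1 ranged from -0.72 to 1.70. Endothelial tissue differences near 0 also turned sign elsewhere. Gpihbp1 was 0.0048 with at least 1000 genes per nucleus, 0.012 without the deepest 5% of nuclei, and 0.078 and 0.00050 at gate tails of 1e-06 and 0.001. Fabp4 was 0.0071 without nuclei of over 15% mitochondrial UMIs and 0.021 at the tail of 1e-06. Lmf1 was -0.0039 without the filter on low counts, -0.088 with 1000 genes, -0.081 without the mitochondrial nuclei and -0.10 at the tail of 1e-06. Vldlr was 0.013 with 1000 genes and 0.016 in endothelial nuclei low in adipocyte RNA. The causes were not tested.

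With the replicate number as a block, adipocytes gave 414 called genes and 1 member (Slc27a1, 0.88), endothelial nuclei 368 genes and 4 members (Fabp3 0.54, Fabp5 0.68, Angptl4 -0.59 and Slc27a1 0.75), and all nuclei 157 genes. Under the block endothelial Lmf1 was -0.0013. Libraries of the same number deviated together (correlations of 0.57, 0.63 and 0.66 over genes in adipocytes, endothelial nuclei and all nuclei). There are only 2 pairs and no label says what the number marks, so what these libraries share was not tested.

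Endothelial Vldlr rested on 13 UMIs in taPVAT replicate 2 and 35 in BAT replicate 2, which limits the precision of its values.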
